A study of Sus scrofa with 23 samples.

Results

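Gene expression was compared between fetal pigs at 94 days post coitum (94 dpc, 5 samples) and finishing pigs at 188 days post natum (188 dpn, 6 samples), 11 of the 23 samples of the series. The other samples came from pigs 1 day (1 dpn, 6 samples) and 28 days after birth (28 dpn, 6 samples). These entered the statistical model and were used to place each change in time. All animals were offspring of German Landrace gilts given the low protein (LP) gestation diet, so both groups shared that exposure and no effect of diet was tested. Each stage held offspring of 3 gilts, and the labels do not tie samples to gilts. Some samples of a stage may therefore share a dam, and p-values here measure the spread between samples and may be too small. Sex is not given for either group. The question put to the data was how the transcriptome differs between late fetal life and slaughter age, across all probe sets of the array.

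Late fetal muscle of the pig is a growing tissue: fibres are being completed, myogenic cells and fibroblasts divide, and connective tissue is laid down around the fibres. Several contractile and metabolic proteins exist as fetal and adult forms encoded by separate genes, and the adult forms replace the fetal ones around and after birth. Finishing muscle contracts with fast and slow myosins, buffers ATP with phosphocreatine and is fuelled by glycogen, glucose and fatty acids. Imprinted genes, which are read from 1 parental copy, include many regulators of fetal growth.

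Every sample carries the tissue label liver, whereas the series title names muscle. The signal of CKM, the muscle creatine kinase, was 39600, 43800, 42100, 48100 and 40900 in the 5 fetal samples and 73400 to 102000 (median 84500) in the 6 finishing samples. MYL1, a fast muscle myosin light chain, read 45100 to 57900 in the fetal and 79900 to 111000 in the finishing samples. CYP7A1, the hepatocyte enzyme that starts bile acid synthesis, read 1.65 to 13.2 in the fetal and 1.75 to 32.8 in the finishing samples. CPS1, the hepatocyte enzyme that starts the urea cycle, read 52.3 to 112 and 17.4 to 261. The median signal of all probe sets was 148.9 to 168.8 on the fetal and 120.8 to 129.6 on the finishing arrays. The muscle genes were thus bright in every sample, CYP7A1 lay far under the median of its array in every sample, and CPS1 lay under it in every fetal sample and reached 261 in finishing replicate 6. Other hepatocyte genes were bright in some or all samples, among them ORM1 (up to 13900 in fetal samples), ALB (up to 9140 in finishing samples) and CYP3A29 (465 to 1020 in finishing samples). On each array the median member of the mature sarcomere list stood at percentile 99.2 to 99.6 of all probe sets. The median secreted hepatocyte protein stood at percentile 42.9 to 67.9 in fetal and 44.6 to 76.5 in finishing samples, and the median hepatocyte enzyme at 28.1 to 33.3 and 46.5 to 64. The sarcomere genes go against a label of liver alone, and hepatocyte genes were not uniformly absent. Signals of different probe sets are not on 1 scale, and this is a check of identity only. ACTA1, the skeletal muscle actin, was not measured under that symbol.

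The arrays of the stages also differed in general measures. The 100 brightest probe sets held 19.1 to 21.6% of the signal on fetal and 23.0 to 26.8% on finishing arrays. The 5′ to 3′ ratio of the actin control was 0.82 to 1.1 against 1.29 to 1.42, and that of the GAPDH control 1.14 to 1.23 against 1.09 to 1.27. Another GAPDH control gave 0.817 to 0.923 against 0.659 to 0.727, and another actin control 0.0988 to 0.28 against 0.167 to 0.207. The ratio of the dap control was 0.0565 to 0.493 against 0.358 to 0.387. A spiked-in hybridisation control (bioD) read 9680 to 14100 against 19000 to 23200. Correlations of log2 values were 0.94 to 0.958 between fetal samples, 0.921 to 0.941 between finishing samples and 0.831 to 0.858 across the groups. The part of these array measures in the results was not tested.

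3 samples stood apart in genes of other organs. In finishing replicate 1, 112 genes read over 2-fold above every other finishing sample, against 8 to 44 in the other 5. Of 44 genes known from kidney tubule and glomerulus, a list written after this was seen, 21 were measured, and 12 of them were over 2-fold above the other 5 samples there. Their summed signal was 12700 in that sample and 1880 to 3350 in the other 5. LRP2, the endocytic receptor of the proximal tubule, read 1040 in finishing replicate 1 and 31.7 to 183 elsewhere at that age, and the inositol oxygenase MIOX read 3120 against 96.7 to 567. MIOX differed from the fetal samples by 2.04 on the log2 scale with finishing replicate 1 and by 1.39 without it. Among 45 measured proteins that hepatocytes secrete, 35 were highest in fetal replicate 3 of the 5 fetal samples, and 29 were highest in finishing replicate 6 of the 6 finishing samples. Several results that rest on these samples are given with and without them.

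**Figure D1:**
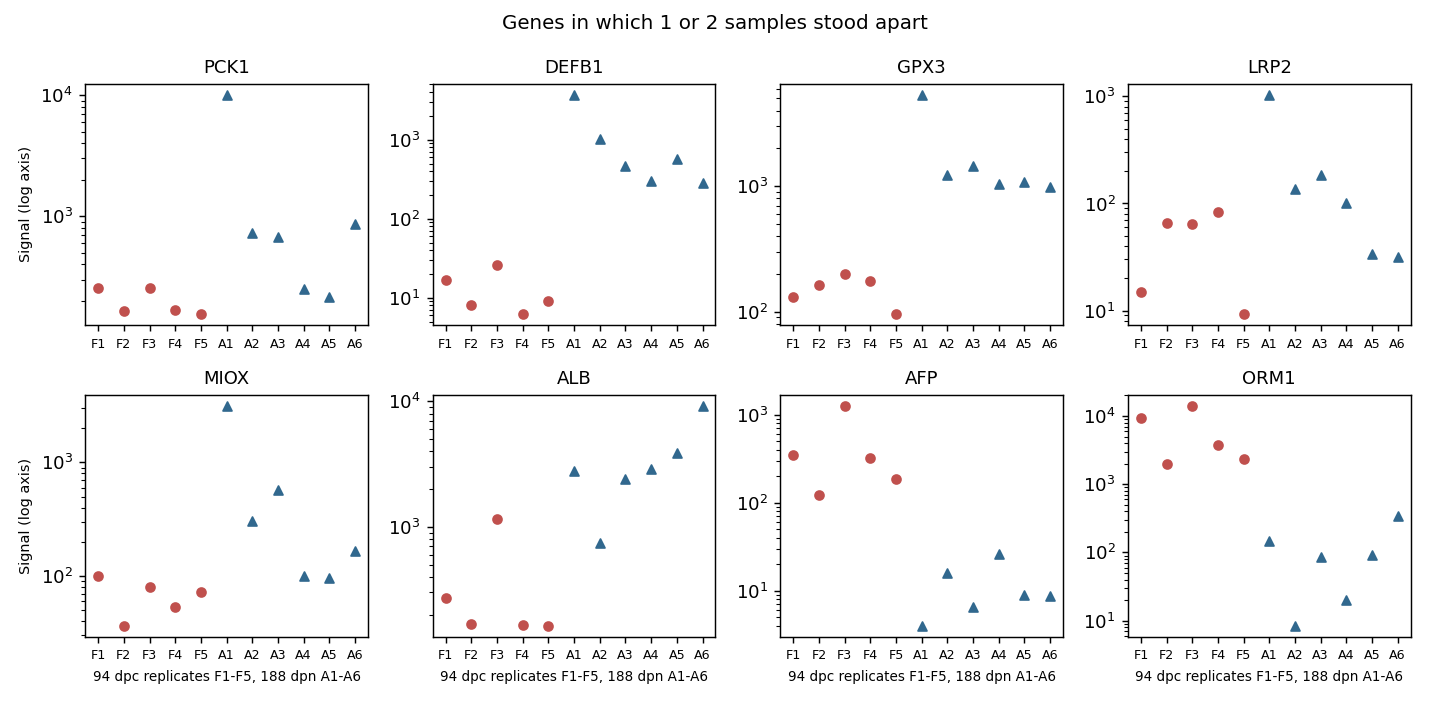
Signal (log axis) of 8 genes in each of the 5 samples of 94 dpc (F1 to F5, circles) and the 6 of 188 dpn (A1 to A6, triangles), with each panel on its own axis. PCK1, DEFB1, GPX3, LRP2 and MIOX were highest in finishing replicate 1, AFP and ORM1 in fetal replicate 3, and ALB in finishing replicate 6.

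At 188 dpn the signal exceeded the fetal one for 3202 of 23999 probe sets and was below it for 5612 (36.7% called, limma, Benjamini-Hochberg adjusted p below 0.05, on log2 of the signal plus 16). Among the 6765 genes with a probe set of 1 symbol, 1317 were higher and 1864 lower, which is 47.0% called, 19.5% higher and 27.6% lower. The 5 fetal and 6 finishing samples did not overlap in 2720 genes (40.2%). At 2-fold or more, 759 genes rose and 1242 fell, and at 8-fold or more 49 rose and 80 fell. The excess of falls rests on how arrays are scaled. Rises made up 36.3% of the calls on the deposited scale, 48.8% with quantile normalization and 56.9% with arrays centred on their medians. The median log2 difference of all probe sets was -0.077, 0.077 and 0.217 on these 3 scales. Small changes are therefore to be read against these shifts, and each list median below stands against that of all genes (-0.078). Differences are given as log2 values of 188 dpn minus 94 dpc with their standard error, and the fold belonging to them understates the change of dim genes because of the added 16.

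**Figure D2:**
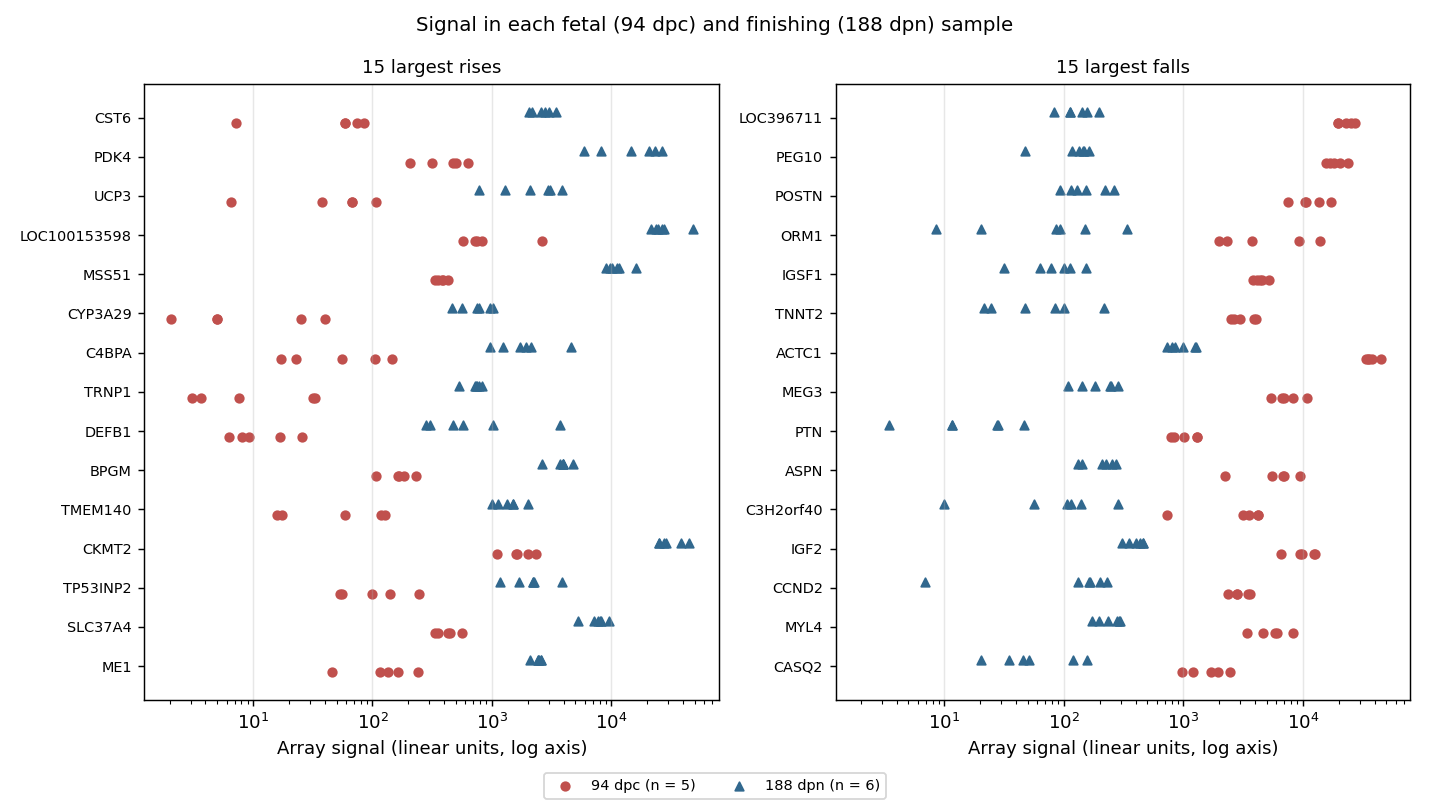
Signal of every sample (log axis) for 15 rises (left) and 15 falls (right), the steepest ones that were called and had separate groups; circles are the 5 samples of 94 dpc and triangles the 6 of 188 dpn. Genes are ordered by the difference of mean log2(signal + 16), which is largest for LOC396711 and PEG10 among the falls and for CST6 and PDK4 among the rises.

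Imprinted and fetal growth genes were among the deepest falls. PEG10, a paternally expressed imprinted gene derived from a retrotransposon, read 18100, 15600, 17000, 23800 and 20600 in the fetal samples. At 188 dpn it read 47.3 to 163 (median 138), so that the lowest fetal sample lay far above the highest finishing one. The fall was 140-fold (log2 -7.13 ± 0.35, adjusted p = 1.3e-12); neither of its other 2 probe sets passed the test. LOC396711, whose product the tables used here do not name, fell 158-fold, from 19600 to 27500 down to 83.3 to 196. IGF2, the fetal insulin-like growth factor, read 9560, 9900, 12700, 12400 and 6610 before birth and 309 to 464 (median 418) at 188 dpn, a 24.1-fold fall without overlap (log2 -4.59 ± 0.37, adjusted p = 1.1e-09). Of its 12 other probe sets 6 also fell and none rose past the threshold.

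MEG3, a maternally expressed long noncoding RNA, read 5420 to 10900 in the fetal and 108 to 284 in the finishing samples (log2 -5.17 ± 0.54, adjusted p = 5.5e-08). PLAGL1, an imprinted zinc finger factor, fell 16-fold (log2 -4 ± 0.3), PEG3 fell 7.74-fold and NDN, necdin, fell 4.87-fold, all without overlap. The related heparin-binding growth factors pleiotrophin (PTN) and midkine (MDK) fell 30.1-fold and 20.4-fold. MDK read 2700 to 3900 in fetal samples and 39.3 to 345 at 188 dpn. IGFBP2, which binds insulin-like growth factors, fell 5.52-fold, and IGF1 fell 2.24-fold with overlapping samples (log2 -1.17 ± 0.36, adjusted p = 0.013). The other probe sets of IGF1 did not pass and differed in sign (log2 -0.5 and 0.49). IGSF1, an immunoglobulin superfamily membrane protein, fell 45-fold outside the list.

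Of the 18 measured genes of the fetal growth and imprinted list, 13 fell, 2 rose and 3 did not pass, with a median of -2.37. The 2 that rose were GRB10 and GHR. GRB10, an imprinted adaptor that restrains insulin and growth factor receptors, read 1680, 1050, 1220, 901 and 887 in the fetal and 7040 to 9700 (median 8840) in the finishing samples (log2 2.91 ± 0.22, adjusted p = 3.2e-10). The growth hormone receptor GHR rose 2.15-fold, from 149 to 595 up to 600 to 760, with the highest fetal sample just under the lowest finishing one. The receptors did not pass the test on their brightest probe sets: IGF1R differed by -0.76 ± 0.38 (adjusted p = 0.13) and IGF2R by -0.27 ± 0.23 (adjusted p = 0.4). The other probe set of IGF1R was called lower (log2 -1.05, adjusted p = 0.028), with mean signals of 122 in fetal and 64.1 in finishing samples. The sign of IGF2R turned under quantile normalization and median centring.

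Fetal and cardiac forms of contractile proteins fell while adult forms rose. Cardiac actin, ACTC1, which fetal skeletal muscle uses, read 33500, 35700, 38100, 44800 and 35400 before birth and 726 to 1270 (median 922) at 188 dpn. The groups were far apart, with a 38.1-fold fall (log2 -5.25 ± 0.24, adjusted p = 4.8e-13). Cardiac troponin T (TNNT2), a fetal isoform in skeletal muscle, read 2530 to 4090 and then 21.4 to 218 (log2 -5.32 ± 0.6, adjusted p = 1.9e-07). MYL4, the embryonic and atrial myosin light chain, read 3410 to 8320 and then 173 to 295 (log2 -4.42 ± 0.26, adjusted p = 1.4e-11). These 3 were all the measured genes of the 7 listed developmental isoforms, since the embryonic and perinatal myosin heavy chains were not measured under their symbols.

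Of 32 measured proteins of the mature sarcomere, 25 rose, 1 fell and 6 did not pass (78.1% higher, median 1.04), and 16 rose and 3 fell after quantile normalization. MYH2, the fast 2A myosin heavy chain, read 3210, 17000, 6240, 4830 and 6930 in the fetal samples and 81100 to 114000 (median 93800) at 188 dpn, a 14.7-fold rise (log2 3.88 ± 0.31, adjusted p = 9.7e-10). Fetal replicate 2 lay above the other fetal samples and still far under every finishing sample. MYH7, the slow myosin heavy chain, rose 2.43-fold, from 21100 to 27900 up to 50200 to 70600. Further large rises were in the Z-disc and stretch-related proteins ANKRD1 (10.4-fold), PDLIM3 (7.98-fold) and MYOT (4.16-fold) and in the slow light chain MYL3 (4.71-fold). Nebulin (NEB), the ruler of the thin filament, rose 4.16-fold and titin (TTN), the spring of the sarcomere, 2.73-fold. The slow tropomyosin gene TPM3 was the member that fell (3.56-fold, log2 -1.83 ± 0.23), with finishing replicate 1 at 1730 and the other 5 at 789 to 1010. The slow troponin I, TNNI1, lay just outside the threshold (log2 0.67 ± 0.26, adjusted p = 0.0505), although its samples did not overlap.

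All 8 measured genes of calcium release passed, 6 higher and 2 lower, with a median of 1.05. ATP2A1, the calcium pump of fast fibres (SERCA1), read 2010, 2030, 1470, 1700 and 1740 before birth and 22200 to 35700 (median 25800) at 188 dpn, a 14.6-fold rise without overlap (log2 3.87 ± 0.17, adjusted p = 2e-13). RYR1, the calcium release channel, rose 3.35-fold. ATP2A2, the pump of slow fibres and heart, rose 1.96-fold, but 2 of its 3 other probe sets fell past the threshold. HRC, a calcium-binding protein of the sarcoplasmic reticulum, and the pump regulators PLN and SLN rose 2.14-fold, 2.09-fold and 2.04-fold. The cardiac and slow calsequestrin CASQ2 fell instead, from 972 to 2480 down to 20.4 to 156, which was 21.2-fold (log2 -4.41 ± 0.53, adjusted p = 5.1e-07). FKBP1A, which binds the release channel, differed by -0.59 ± 0.21 (adjusted p = 0.028), and left the calls without finishing replicate 4 or without fetal replicate 1, 2 or 3 (adjusted p 0.051 to 0.081).

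The myogenic factors moved in opposite directions. MYF5, the factor of early myoblasts and satellite cells, read 729, 919, 468, 235 and 691 in the fetal samples and 26.5 to 81.8 (median 41.8) at 188 dpn (log2 -3.29 ± 0.32, adjusted p = 2e-08). MYOD1 fell 4.47-fold, from 1560 to 2380 down to 279 to 586. MYF6, the factor of mature fibres also called MRF4, rose 4.09-fold, from 2450, 1190, 1070, 1390 and 1160 up to 4760 to 7320 (log2 2.03 ± 0.35, adjusted p = 5e-05). Its 1 other probe set did not pass. The inhibitors of differentiation ID1 and ID3 fell 3.99-fold and 4.2-fold, and NCAM1, the neural cell adhesion molecule of immature fibres, fell 2.93-fold. MEF2A, a partner of the myogenic factors, rose 1.74-fold. Of 13 measured regulators 4 rose (30.8%), 5 fell (38.5%) and 4 did not pass, against 19.5% higher and 27.6% lower among all genes. Their median of -0.12 turned positive after quantile normalization (0.02) and median centring (0.18). The median of all probe sets did so too. The other two that rose, PAX3 (log2 1.4 ± 0.49) and SIX4 (log2 0.79 ± 0.27), had overlapping samples, and both left the calls without finishing replicate 1 or without fetal replicate 1 or 4 (adjusted p 0.051 to 0.11). PAX3 also left them without finishing replicate 2, 4 or 6 or fetal replicate 3 (adjusted p 0.054 to 0.089). Myostatin (MSTN) differed by -0.44 ± 0.38 (adjusted p = 0.41). CHRNA1, the receptor subunit for acetylcholine and the 1 junctional gene measured, fell 5.25-fold.

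Genes of cell division were low at 188 dpn. Of 40 measured cell cycle and replication genes, 34 fell, 1 rose and 5 did not pass, with a median of -1.89. CCND2, the D-type cyclin, read 2830, 2360, 3490, 3590 and 2840 in the fetal and 6.87 to 228 (median 164) in the finishing samples (log2 -4.49 ± 0.4, adjusted p = 5.4e-09). The mitotic cyclins CCNB1 and CCNB2 fell 7.52-fold and 8.8-fold. UBE2C, which drives mitotic exit, fell 14-fold, from 862 to 1100 down to 11.7 to 154, and NUSAP1, a spindle protein, 9.17-fold. The groups did not overlap in any of these 5 genes. MCM4, a subunit of the replicative helicase, rose 1.74-fold at a low signal (15.3 to 51.8 against 39.7 to 68.6) with overlapping samples, and its other probe set did not pass.

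Chromatin and RNA binding proteins of growing cells followed, with 20 of 25 measured members lower, 1 higher and a median of -0.92; 12 were lower after median centring. HMGB2, a chromatin protein of dividing cells, read 2480 to 3220 in fetal and 197 to 365 in finishing samples (log2 -3.51 ± 0.3, adjusted p = 2.3e-09). MARCKS, a substrate of protein kinase C that binds actin, fell 8.52-fold, and EZH2, the histone methyltransferase of the Polycomb complex, 6.65-fold. HNRNPA2B1 was the member called higher (log2 0.54 ± 0.21, adjusted p = 0.046), and left the calls without any single one of 9 of the 11 samples (adjusted p 0.057 to 0.13). Another of its probe sets was called higher (log2 0.73, adjusted p = 0.00043), and a further one did not pass (log2 0.73, adjusted p = 0.082).

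Connective tissue genes fell almost throughout. Of 36 measured genes of matrix and fibroblasts, 33 fell, none rose past the threshold and 3 did not pass, with a median of -2.13; 32 of the 36 had samples that did not overlap. Periostin (POSTN), a matrix protein of growing connective tissue, read 7520, 10400, 17100, 10600 and 13600 in the fetal samples and 92.6 to 261 (median 140) at 188 dpn, a 68-fold fall (log2 -6.09 ± 0.36, adjusted p = 1.1e-11). Asporin (ASPN), a small proteoglycan, fell 26.3-fold, with fetal replicate 1 at 2250 and the other fetal samples at 5520 to 9520. Osteopontin (SPP1) fell 20.7-fold, the large proteoglycan versican (VCAN) 13.6-fold, and the membrane protease MMP14 13-fold. The collagen chain COL1A2 fell 5.92-fold and SPARC, a collagen-binding protein, 1.74-fold, from 37600 to 43000 down to 16800 to 28400. COL3A1 did not pass (log2 -0.26 ± 0.49, adjusted p = 0.73) at signals of 27.7 to 195 and 15.4 to 161. In these whole-tissue samples, fewer cells of a type and less RNA per cell cannot be told apart, here and for all cell type lists below.

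Vessel genes were lower as well. Of 21 measured endothelial genes 16 fell, none rose and 5 did not pass, with a median of -1.08. CDH5, the cadherin of endothelial junctions, read 2800 to 5720 in fetal and 398 to 1010 in finishing samples (log2 -2.33 ± 0.24, adjusted p = 3.8e-08). ERG, an endothelial transcription factor, fell 4.81-fold, the lymphatic receptor LYVE1 4.24-fold, the tight junction protein CLDN5 3.98-fold and PECAM1 3.82-fold. VWF, the clotting factor that endothelium stores, did not pass (log2 0.6 ± 0.33, adjusted p = 0.17). Of 12 measured genes of smooth muscle and pericytes, 8 fell (median -1.03), led by MCAM (7.86-fold) and the potassium channel KCNJ8 of pericytes (7.64-fold), and smooth muscle actin (ACTA2) fell 4-fold. DES, desmin, which skeletal fibres also hold, was the member that rose (1.61-fold); it did not stay called after quantile normalization.

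In the 9 measured nerve genes, 3 fell (33.3%), 1 rose (11.1%) and 5 did not pass, with a median of -0.74. Among all genes 27.6% fell and 19.5% rose. UCHL1, a ubiquitin hydrolase of neurons, rose 12.2-fold, from 30.7, 82, 82, 156 and 88 up to 506 to 1490 (median 1370), with finishing replicate 1 the lowest. Myelin basic protein (MBP) fell 3.98-fold on its brightest probe set, while 2 of its 3 other probe sets rose past the threshold, so its direction depends on the probe set. MAL, a myelin and lymphocyte protein, lay just inside the threshold (log2 -0.77 ± 0.3, adjusted p = 0.0499), with finishing replicate 1 at 375 above every fetal sample, and left the calls without any single one of 9 of the 11 samples (adjusted p 0.064 to 0.14).

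**Figure D3:**
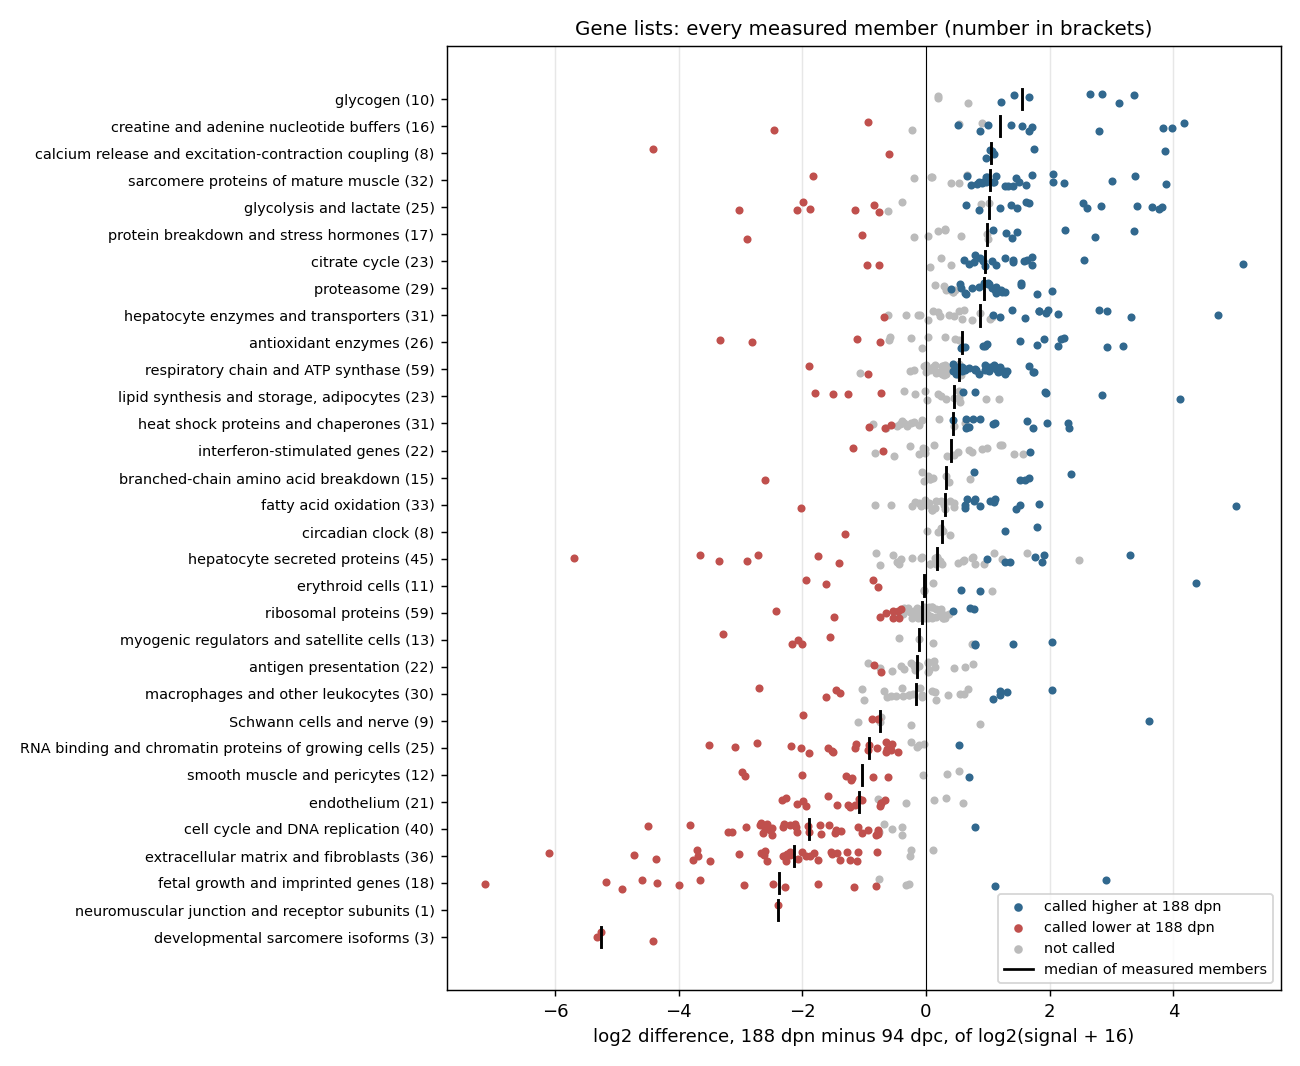
Log2 difference between 188 dpn and 94 dpc for every measured member of each gene list (number in brackets), ordered by the median (black bar); blue points were called higher, red lower and grey not called. Medians run from -5.25 for the developmental sarcomere isoforms to 1.55 for glycogen genes.

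The lists of fuel and energy metabolism differed in how many members rose, against 19.5% of all genes. The share ran from 18 of 23 genes of the citrate cycle list (78.3%) to 6 of 23 lipid genes (26.1%). Of 10 measured glycogen genes 7 rose, none fell and the median was 1.55. PHKB, a regulatory subunit of the kinase that activates glycogen breakdown, read 1360, 1520, 1640, 1290 and 1140 in fetal and 12300 to 15400 (median 14900) in finishing samples (log2 3.36 ± 0.17, adjusted p = 2.3e-12). PGM1, which links glycogen to glycolysis, rose 8.69-fold, muscle glycogen phosphorylase (PYGM) 7.21-fold and glycogenin (GYG1), the primer of glycogen, 6.28-fold. The synthase GYS1 rose 2.32-fold, and neither of its 2 other probe sets passed. SLC37A4, the glucose 6-phosphate transporter of the endoplasmic reticulum, rose 17.4-fold outside the list, from 336 to 562 up to 5210 to 9580.

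Of 16 measured genes of creatine and adenine nucleotide buffering, 11 rose and 2 fell, with a median of 1.19. CKMT2, a creatine kinase that sits in the mitochondria of muscle, read 1610, 2340, 1110, 2010 and 1580 before birth and 24800 to 44300 (median 28000) at 188 dpn, an 18.1-fold rise (log2 4.18 ± 0.22, adjusted p = 2.3e-12). The cytosolic enzyme CKM rose 2.01-fold. GAMT, which completes creatine synthesis, rose 15.6-fold, from 531 to 782 up to 9400 to 11700, and the creatine transporter SLC6A8 3.28-fold. ADSSL1 and AMPD1, muscle enzymes of the purine nucleotide cycle, rose 14.3-fold and 6.97-fold.

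In the glycolysis list 14 of 25 measured genes rose, 7 fell and 4 did not pass, with a median of 1.02, so members went both ways. After quantile normalization 15 rose and 6 fell, and after median centring 16 rose and 4 fell. PFKM, the muscle phosphofructokinase, read 5450, 5520, 4220, 4330 and 5220 in fetal and 57300 to 70800 (median 61400) in finishing samples (log2 3.66 ± 0.31, adjusted p = 2.5e-09). GPI, the second enzyme of the path, rose 10.6-fold, LDHA, the lactate dehydrogenase of fast muscle, 7.12-fold and PGK1 6.05-fold. FBP2, the muscle fructose bisphosphatase, and GPD1, of the glycerol phosphate shuttle, rose 14-fold and 13.6-fold. BPGM, which makes the bisphosphoglycerate of red cells and stands in the erythroid list, rose 20.6-fold, from 107 to 233 up to 2600 to 4750. The fallen members included the glucose transporters SLC2A1 and SLC2A3 and the hexokinase HK1, which fell 3.68-fold.

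Among mitochondrial genes, the median difference as deposited was smaller in the respiratory chain list than in the citrate cycle list. Of 23 measured citrate cycle genes 18 rose and 2 fell (median 0.96). This list also holds genes of pyruvate entry and its control. PDK4, the kinase that shuts off pyruvate entry into the cycle, led the rises. It read 474, 634, 500, 208 and 317 before birth and 5930 to 26400 (median 17600) at 188 dpn, 34.7-fold higher (log2 5.12 ± 0.43, adjusted p = 2.1e-09). SUCLA2, a subunit of succinyl-CoA ligase, rose 5.87-fold, OGDH 3.3-fold, pyruvate carboxylase (PC) 3.26-fold and citrate synthase (CS) 2.41-fold. Of 59 measured subunits of the respiratory chain and ATP synthase, 31 rose, 2 fell and 26 did not pass, with a median of 0.53. After quantile normalization 16 rose and 6 fell with a median of 0.03, which is under the median of all probe sets on that scale. After median centring 42 rose and 2 fell with a median of 0.82. Whether this list as a whole shifted against all probe sets therefore depends on the scaling. Under all 3 scalings ATP5J (3.36-fold as deposited), SDHC (3.31-fold) and NDUFC1 (3.17-fold) were higher.

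In the fatty acid oxidation list 13 of 33 measured genes rose (39.4%, against 19.5% of all genes), 1 fell and 19 did not pass, with a median of 0.31. UCP3, the uncoupling protein of skeletal muscle, read 67.4, 37.7, 66.8, 6.55 and 107 in fetal and 786 to 3880 (median 2500) in finishing samples (log2 5.02 ± 0.38, adjusted p = 4.7e-10). The short- and medium-chain dehydrogenases ACADS and ACADM rose 3.56-fold and 2.86-fold. ANGPTL4, a lipoprotein lipase inhibitor, rose 2.74-fold with overlapping samples. CPT1B, the muscle gate of fatty acid entry into mitochondria, did not pass (log2 0.15 ± 0.21, adjusted p = 0.62).

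In the lipid list 6 of 23 measured genes rose (26.1%) and 4 fell (17.4%), with a median of 0.46. Among all genes 19.5% were higher and 27.6% lower. ME1, the malic enzyme that supplies NADPH, rose 17.3-fold, from 45.6, 115, 134, 162 and 242 up to 2080 to 2590 (median 2450). LPIN1, a phosphatidate phosphatase, rose 7.16-fold and PNPLA2, the first triglyceride lipase, 3.85-fold. Fatty acid synthase (FASN) fell 2.39-fold, from 631 to 863 down to 192 to 507, although none of its 3 other probe sets passed. The adipocyte hormone ADIPOQ (log2 0.33 ± 0.34, adjusted p = 0.49) and leptin, LEP (log2 0.46 ± 0.51, adjusted p = 0.53) did not pass. PCK1, the entry enzyme of gluconeogenesis, read 156 to 257 in fetal samples and 217 to 10100 at 188 dpn, the highest value being finishing replicate 1. Its difference was 1.93 ± 0.63 (adjusted p = 0.017) with that sample and 1.21 ± 0.4 (adjusted p = 0.02) without it. In branched-chain amino acid breakdown 5 of 15 measured genes rose (33.3%) and 1 fell (6.67%), with a median of 0.33. The largest rises there were in BCKDHB (5.05-fold), a subunit of the dehydrogenase complex, and its kinase BCKDK (3.16-fold).

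Members of a protein family often went opposite ways. The families described were picked because their members differed, after the values were seen, and are a description. SLC2A4, the insulin-regulated glucose transporter GLUT4, rose 2.58-fold, from 75.9 to 155 up to 220 to 435, while its other probe sets did not pass (log2 0.55 and 0.22). The widely expressed transporters SLC2A1 and SLC2A3 fell 8.09-fold and 4.24-fold, and neither gene's samples overlapped. PFKM rose while the liver and platelet phosphofructokinases PFKL and PFKP fell 3.98-fold and 2.21-fold; PFKP left the calls without finishing replicate 6 (adjusted p = 0.059). The muscle enolase ENO3 rose 2.77-fold and the general enolase ENO1 fell 1.79-fold. In the glycolysis list, which holds these genes, 4 members were called lower after median centring, against 7 as deposited.

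The same was seen in mitochondria. SLC25A4, the adenine nucleotide translocase of muscle and heart, rose 1.84-fold, from 17900 to 21300 up to 32000 to 40800. SLC25A6 fell 5.46-fold, from 39000, 32800, 33500, 36600 and 34200 down to 5310 to 7470 (log2 -2.45 ± 0.18, adjusted p = 2.6e-10). COX7A1, the heart and muscle form of a cytochrome oxidase subunit, rose 2.33-fold, while the general form COX7A2 fell 1.92-fold and COX6A1, the general form of another subunit, 3.71-fold. UCP3 rose and UCP2 fell 4.06-fold. The mitochondrial branched-chain aminotransferase BCAT2 rose 3.04-fold and the cytosolic BCAT1 fell 6.12-fold. In the sarcomere, TNNT1 and TNNT3 rose 2.63-fold and 1.99-fold against the fall of TNNT2. Among glutathione peroxidases GPX3 rose and GPX7, a form of the endoplasmic reticulum, fell 10.1-fold, from 2450 to 2810 down to 172 to 376.

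**Figure D4:**
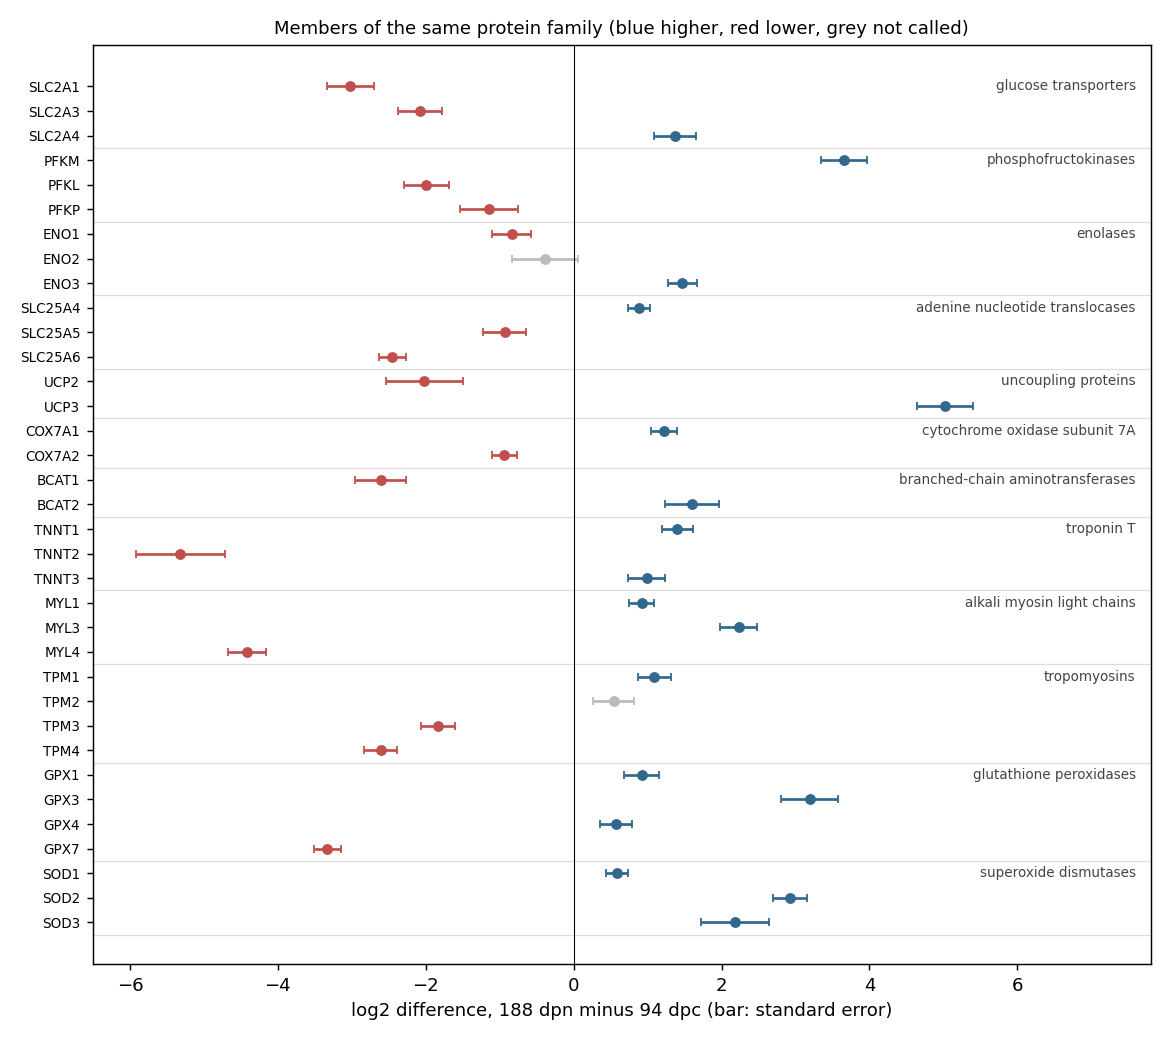
Log2 difference between 188 dpn and 94 dpc with its standard error for members of 12 protein families, chosen after the values were seen; blue was called higher, red lower and grey not called. In 11 of the 12 families a blue and a red member stand on opposite sides of 0, and the superoxide dismutases all lie to the right.

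All 29 measured proteasome subunits had differences above 0, of which 22 passed (75.9%) and 7 did not, with a median of 0.94; after quantile normalization 17 passed. PSMD11, a subunit of the regulatory lid, read 3490 to 4330 in fetal and 14300 to 18200 in finishing samples (log2 2.03 ± 0.17, adjusted p = 3.1e-09). PSMA3 rose 3.47-fold and PSMD2 2.91-fold. Of 17 measured genes of protein breakdown and stress hormones 7 rose, 2 fell and 8 did not pass, with a median of 0.98. FKBP5, a glucocorticoid-induced chaperone partner, read 74.5, 119, 107, 83.2 and 78.1 before birth and 801 to 1410 (median 1090) at 188 dpn (log2 3.36 ± 0.48, adjusted p = 4.9e-06). FBXO32 (atrogin-1), the muscle ubiquitin ligase of atrophy, rose 6.66-fold, from 580 to 1430 up to 3890 to 10700, and the autophagy receptor SQSTM1 4.76-fold. The metallothionein MT3 fell 7.43-fold. TP53INP2, an autophagy regulator, rose 17.7-fold outside the list.

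In the chaperone list 14 of 31 measured genes rose, 3 fell and 14 did not pass, with a median of 0.44, and 10 rose and 8 fell after quantile normalization. The largest rises included small heat shock proteins of muscle: HSPB8 rose 5.01-fold, from 1970 to 4130 up to 10100 to 19700, HSPB3 4.89-fold, HSPB7 3.87-fold and CRYAB 3.12-fold. HSPB1 was at the threshold (log2 0.69 ± 0.27, adjusted p = 0.05) with overlapping samples, and left the calls without any single one of 8 of the 11 samples (adjusted p 0.052 to 0.12). The chaperones of the endoplasmic reticulum HSP90B1 and HSPA5 fell 1.9-fold and 1.59-fold, and in both the lowest fetal sample, replicate 1, lay within the finishing range. HSPA5 left the calls without fetal replicate 3 (adjusted p = 0.072). The chaperonin subunit CCT2 was the other member that fell (log2 -0.56 ± 0.17, adjusted p = 0.013), and it left the calls after median centring. After that centring 16 members of the list were called higher and 1 lower.

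Of 26 measured antioxidant genes 14 rose and 4 fell, with a median of 0.58. Mitochondrial superoxide dismutase (SOD2) rose 7.55-fold, from 958 to 1580 up to 8420 to 10400. GPX3, the extracellular glutathione peroxidase that kidney makes in bulk, read 95.6 to 199 in fetal samples. At 188 dpn it read 985 to 1440 in 5 samples and 5370 in finishing replicate 1. The difference of GPX3 was 3.19 on the log2 scale with that sample and 2.82 without it (adjusted p = 6.1e-07 and 2.7e-07). Ribosomal proteins gave no direction that held: of 59 measured 3 rose, 9 fell and 47 did not pass, with a median of -0.06, against 0 and 36 after quantile normalization and 17 and 3 after centring. RPL3 fell 5.35-fold, from 23200 to 26500 down to 3930 to 5210, and stayed lower under all 3 scalings.

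Immune genes differed little between the ends of the series. Of 22 measured interferon-stimulated genes 1 rose, 2 fell and 19 did not pass, against 47.0% of all genes called, with a median of 0.4. UBD, an interferon-induced ubiquitin-like protein, rose 3.2-fold at low signals (36.3 to 141 against 169 to 400). STAT2, a signal carrier of interferon receptors, fell 2.27-fold, and IRF1 differed by -0.7 ± 0.22 (adjusted p = 0.014), with fetal replicate 1 highest and no call without it (adjusted p = 0.057). Of 22 antigen presentation genes none rose and 2 fell, CTSS (1.79-fold) and SLA-8 (1.66-fold), both with overlapping samples; SLA-8 left the calls without any single one of 5 samples (adjusted p 0.07 to 0.11). Of 30 leukocyte genes 5 rose (16.7%) and 4 fell (13.3%), against 19.5% and 27.6% of all genes. CXCR4, a chemokine receptor also found on progenitor and endothelial cells, fell 6.48-fold, from 1850 to 2870 down to 262 to 497. The complement chain C1QA of macrophages fell 3.08-fold, and the scavenger receptor MARCO rose 4.13-fold with overlap, from 5.26 to 57.4 up to 39.8 to 153, while its 1 other probe set fell past the threshold. The median of the antigen presentation list (-0.14) and that of the leukocyte list (-0.16) turned positive after quantile normalization and median centring. That of all probe sets did so too.

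In the erythroid list 3 of 11 measured genes rose (27.3%) and 4 fell (36.4%), against 19.5% and 27.6% of all genes. The list median of -0.03 turned positive after quantile normalization and median centring, as did the median of all probe sets. ALAS2, the first enzyme of heme synthesis in red cell precursors, fell 3.82-fold, from 306 to 652 down to 7.7 to 210. HBB, a globin chain, fell 1.82-fold with overlapping samples. BPGM, described above, is a member of this list and rose.

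Genes of hepatocytes differed in both directions. Of 45 measured secreted proteins 7 rose, 7 fell and 31 did not pass (median 0.18), which is under the background in both directions. AFP, alpha-fetoprotein, read 350, 123, 1250, 326 and 186 in fetal and 4.02 to 26.1 (median 8.85) in finishing samples (log2 -3.66 ± 0.58, adjusted p = 2.2e-05). ORM1, an acid glycoprotein, read 9330, 1990, 13900, 3740 and 2320 and then 8.43 to 340 (log2 -5.69 ± 1.02, adjusted p = 8.7e-05), and AHSG, fetuin A, fell 10.2-fold. SERPINA1, antitrypsin, fell 7.39-fold and APOA1 6.58-fold. ALB, albumin, rose 9.87-fold with overlap (log2 3.3 ± 0.98, adjusted p = 0.01), from 272, 168, 1160, 165 and 163 up to 744 to 9140, fetal replicate 3 being above the lowest finishing sample. Without fetal replicate 3 the list median was 0.47, with 7 members higher and 7 lower. The difference without that sample was 3.81 for ALB, -3.18 for AFP, -5.3 for ORM1, -3.0 for AHSG and -2.46 for SERPINA1. Without finishing replicate 6 it was 2.97 for ALB. The complement protein C3 rose 3.76-fold, and C4BPA, a complement inhibitor, 26.2-fold outside the list. The summed signal of the 45 genes was 25600 to 72200 in fetal and 11100 to 48000 in finishing samples, highest in fetal replicate 3 and finishing replicate 6. Their part in these results was not tested.

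Of 31 measured hepatocyte enzymes and transporters 13 rose and 1 fell (median 0.88), and 11 rose and 1 fell without finishing replicate 1. CYP3A29, a cytochrome P450 of drug metabolism, read 5.03, 39.9, 2.04, 25.1 and 5 in fetal and 465 to 1020 (median 766) in finishing samples, where replicate 1 was the lowest (log2 4.72 ± 0.55, adjusted p = 3.3e-07). CYP2C33 was highest in finishing replicate 1 at 8200, the other 5 reading 189 to 1540, and differed by 3.32 ± 0.8 with and 2.66 ± 0.7 without it (adjusted p = 0.0018 and 0.0042). GNMT, a glycine methyltransferase, rose 7.63-fold at low signals (4.05 to 15.2 against 97.9 to 274). DEFB1, an epithelial defensin, rose 24.2-fold, with 3720 in finishing replicate 1 and 283 to 1030 in the other 5, all above the fetal 6.24 to 25.8; its difference was 4.6 with and 4.11 without that sample, and its 1 other probe set did not pass.

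Several large rises lay outside these lists. CST6, a cystatin that inhibits lysosomal proteases, read 58.9, 74.8, 59.4, 85.1 and 7.18 before birth and 2050 to 3460 (median 2690) at 188 dpn, 40.5-fold higher (log2 5.34 ± 0.42, adjusted p = 9.1e-10). LOC100153598, not named in the tables used here, rose 29.3-fold, from 567 to 2640 up to 21600 to 48200; its 1 other probe set did not pass. MSS51, a muscle mitochondrial protein, read 336 to 432 and then 8960 to 16100 (log2 4.82 ± 0.25, adjusted p = 2.3e-12). TRNP1, a nuclear protein, rose 25.3-fold, from 3.06 to 32.9 up to 532 to 832. TMEM140, a membrane protein, rose 20.3-fold, from 15.9 to 127 up to 1010 to 2010. C3H2orf40 fell 25.9-fold, and there fetal replicate 1 read 736 while the other 4 read 3190 to 4250. CNRIP1, a cannabinoid receptor partner, lay just outside the threshold (log2 -0.57 ± 0.22, adjusted p = 0.0501).

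The intermediate stages place the differences in time. The steps share samples with each other and with the comparison above, so their values are set side by side only. Of the 6765 genes 33.1% were called between 94 dpc and 1 dpn, 24.1% between 1 and 28 dpn and 18.3% between 28 and 188 dpn. The 1 dpn arrays differed in control measures. In replicates 2, 4 and 5 of 1 dpn the 5′ to 3′ ratio of the GAPDH control was 0.0868, 0.148 and 0.138, against 1.09 to 1.29 on the other arrays of all stages, and bioD read 24600 to 41800 over the 6 arrays of 1 dpn. Steps are therefore also given without these 3 samples where that ends a call or moves a value by over 1.5 times, an alternative chosen after the data were seen. Between 1 and 28 dpn, 912 genes rose and 721 fell with all samples, and 708 and 613 without the 3. By 1 dpn 926 genes had risen and 1316 fallen with all samples, and 968 and 1270 without the 3. From 28 to 188 dpn 392 rose and 849 fell with all samples, and 563 and 1061 without the 3. Without them more genes were called in the last step than between 1 and 28 dpn. The lower share called in the last step than in the one before therefore rests on these 3 samples. ACTC1 was still high at 28 dpn, with steps of 0.51 (adjusted p = 0.13), -0.76 and -5.01, the last with an adjusted p of 1.9e-12; the second left the calls without the 3 samples (-0.7, adjusted p = 0.13). MYL4 (-4.58) and TNNT2 (-5.98) had fallen by 1 dpn. Both rose between 1 and 28 dpn, MYL4 by 0.9 and TNNT2 by 2.2, and neither step passed without the 3 samples (0.58, adjusted p = 0.23, and 1.24, adjusted p = 0.25). The fall of TNNT2 by 1 dpn was -5.01 without them. MDK fell by 5.77 by 1 dpn, rose by 3.89 to 28 dpn and fell by 2.47 afterwards, and the steps to and from 1 dpn were -4.62 and 2.74 without the 3 samples. PEG10 fell at every step (-2.31, -3.16 and -1.66 on the log2 scale), and so did LOC396711 (-2.04, -2.81 and -2.45). IGF2 changed by -0.87 (adjusted p = 0.088), -1.1 and -2.62.

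Among the rises, ATP2A1 (3.28), CKMT2 (4.27), PDK4 (4.68), LOC100153598 (4.71) and TRNP1 (3.91) had gained most by 1 dpn. MYH2 (3.58), MSS51 (4.14), GAMT (4.6), BPGM (3.03) and ADSSL1 (2.95) gained between 1 and 28 dpn, GAMT by 3.26 without the 3 samples. The late step held most of the rise of TMEM140 (3.71), MYF6 (2.45) and ME1 (2.13), and the fall of LYVE1 (-1.82) and MBP (-1.83). GHR fell by 1.51 by 1 dpn and rose at both later steps, by 1.6 and 1.02.

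Some lists moved back and forth between the ends. Of the cell cycle genes, 29 of 40 fell by 1 dpn, 15 rose between 1 and 28 dpn (9 without the 3 samples) and 19 fell from 28 to 188 dpn. CCNB1 shows this, with mean signals of 447 ± 83.1 (SD, n = 5) at 94 dpc, 33.2 ± 28.2 (SD, n = 6) at 1 dpn, 219 ± 40 (SD, n = 6) at 28 dpn and 47.4 ± 17.1 (SD, n = 6) at 188 dpn. Of the 22 interferon-stimulated genes 18 rose between 1 and 28 dpn (8 without the 3 samples) and 19 fell from 28 to 188 dpn, and of the 22 antigen presentation genes 16 rose (10 without them) and 13 fell in these steps. In the respiratory chain list 51 of 59 rose by 1 dpn, while 12 fell in the next step and 8 in the last (26 and 13 without the 3 samples). The 8 of 59 in the last step are near the share of all genes that fell there, 849 of 6765. In the fatty acid oxidation list 22 of 33 rose by 1 dpn and 11 fell in the last step. CPT1B rose by 2.9 by 1 dpn and fell by 1.68 and 1.07 later. The proteasome list rose in 19 of 29 genes by 1 dpn, fell in 9 from 1 to 28 dpn and rose in 10 from 28 to 188 dpn (26, 11 and 15 without the 3 samples). SQSTM1 had steps of 1.63, -1.05 and 1.67, of which the second did not pass without them (-0.55, adjusted p = 0.23). The part of these control measures in the steps was not tested.

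**Figure D5:**
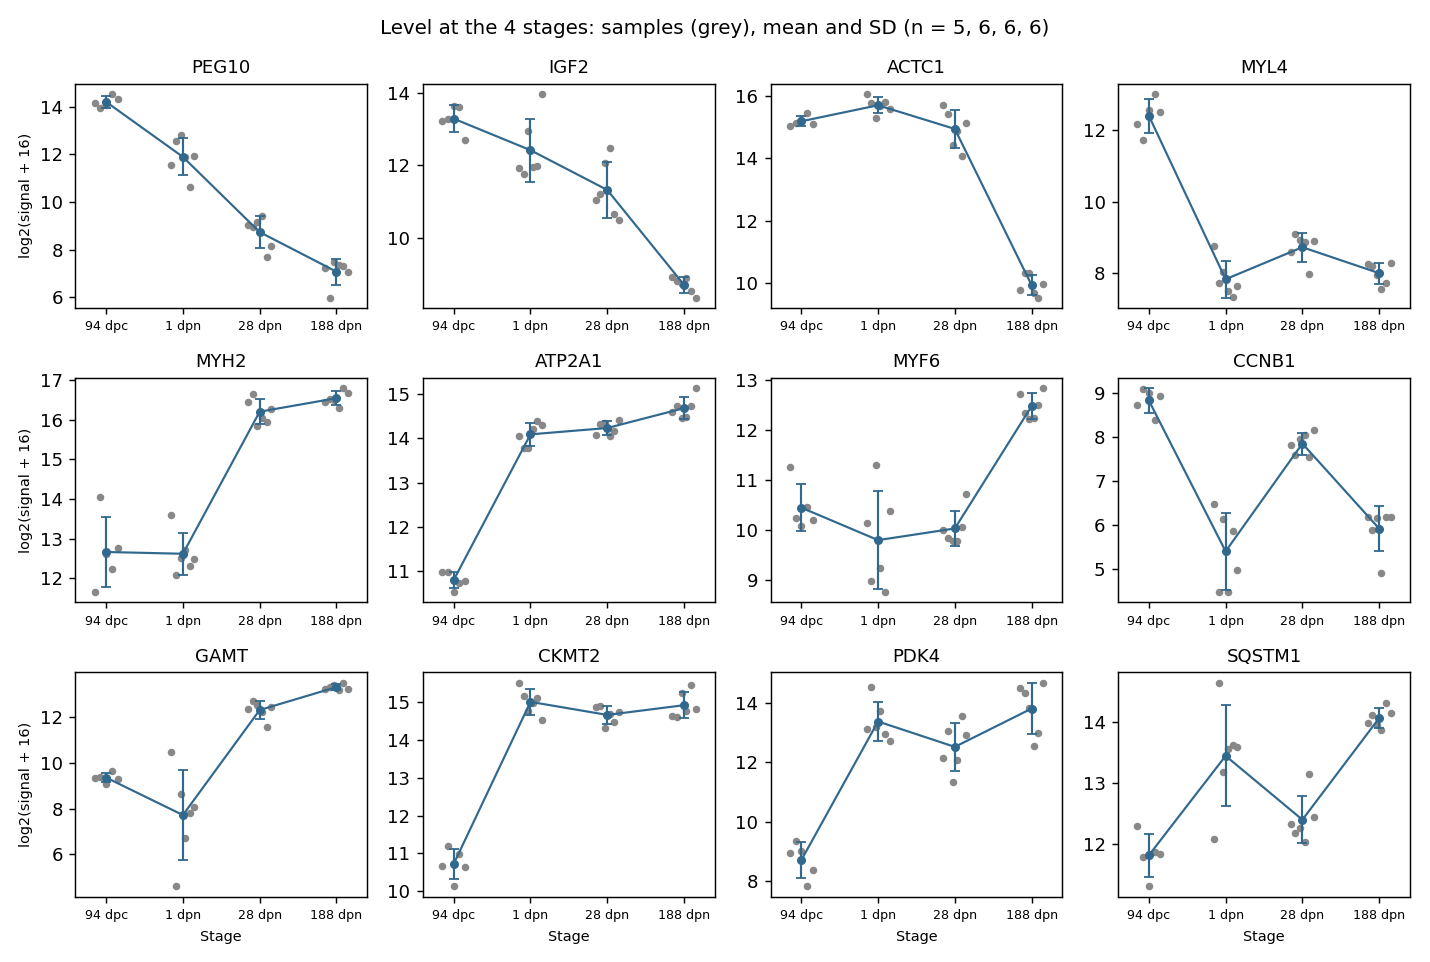
Log2 of the signal plus 16 at the 4 stages for 12 genes, with each panel on its own axis; grey points are samples and the line joins stage means with SD bars (n = 5, 6, 6 and 6). PEG10 declined throughout, ACTC1 dropped after 28 dpn, ATP2A1, CKMT2 and PDK4 rose by 1 dpn, MYH2 and GAMT by 28 dpn, MYF6 after 28 dpn, and CCNB1 fell, rose and fell again; all 6 samples of 1 dpn are drawn.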

How the data were processed

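RNA of 23 samples was hybridised to the Affymetrix porcine array. The deposited values are linear array signal intensities; per the submitters' processing notes GCOS 1.1.1 was used, and how signals were summarised and background-corrected is not given in the sources used here. In the deposited intensities the 2% trimmed mean of every array was 500.1 to 500.2, so arrays share 1 scale. The 124 control probe sets were left out, and 23999 were tested as log2(signal + 16) with limma 3.58.1 (R 4.3.3), 1 mean per stage over all 23 arrays, and p-values were adjusted over every probe set tested (Benjamini-Hochberg). Symbols came from the platform annotation: 10069 probe sets had 1 symbol, 198 several and 13732 none. A gene was represented by its brightest probe set. Replicate numbers follow the order of deposition and pair nothing. Tested on simulated data for this comparison with 23999 probe sets, 32 of 100 planted 2-fold and 82 of 100 planted 4-fold changes were recovered, with 3 false calls. All other simulated probe sets had equal stage means and independent normal noise, whereas 36.7% of probe sets were called in the data. The adjusted threshold was therefore stricter in the simulation, and its recovery rates do not apply to the comparison itself.

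Named genes are the 15 largest rises and falls among called genes without overlap and above the median level, up to 5 called members per list and direction, members needed to account for a list, tissue markers and 2 genes on each side of the threshold; others were chosen after their values were seen. Members and lists were chosen with earlier results of these data known. The number of arrays limits the precision.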

Additional observations from a re-analysis of the deposited data

Results flagged for a closer look

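In 28 of 384 gene and group combinations (192 genes in both groups), 1 sample lay further from the others than Dixon's 95% limit; 8 were in the fetal and 20 in the finishing group. Chance alone gives about 1 in 20 groups. For finishing replicate 1 this held for PCK1 (highest at 10100, nearest other 864), TPM3 (highest at 1730, nearest other 1010), HMGB2 (highest at 365, nearest other 235), UCHL1 (lowest at 506, nearest other 1170), COX6A1 (highest at 3560, nearest other 1960), GPX3 (highest at 5370, nearest other 1440) and MAL (highest at 375, nearest other 135). In finishing replicate 2 a distant signal was found for PEG10 (lowest at 47.3, nearest other 118), NCAM1 (highest at 223, nearest other 133), CDH5 (lowest at 398, nearest other 718) and ALAS2 (lowest at 7.7, nearest other 104). For finishing replicate 3 this held for PAX3 (lowest at 18.2, nearest other 100). In finishing replicate 4 a distant signal was found for CCNB1 (lowest at 14.3, nearest other 43.2), LYVE1 (lowest at 3.99, nearest other 68.5) and LOC100153598 (highest at 48200, nearest other 27600). For finishing replicate 5 this held for CCND2 (lowest at 6.87, nearest other 131), ME1 (lowest at 2080, nearest other 2430), PSMA3 (lowest at 8580, nearest other 11200) and TRNP1 (lowest at 532, nearest other 715). In finishing replicate 6 a distant signal was found for PFKL (lowest at 160, nearest other 256). For fetal replicate 1 this held for IGF1R (highest at 321, nearest other 118), C3H2orf40 (lowest at 736, nearest other 3190) and IRF1 (highest at 717, nearest other 455). In fetal replicate 2 a distant signal was found for MARCO (highest at 57.4, nearest other 10.3) and LOC100153598 (highest at 2640, nearest other 828). For fetal replicate 3 this held for ALB (highest at 1160, nearest other 272). In fetal replicate 5 a distant signal was found for CST6 (lowest at 7.18, nearest other 58.9) and GYS1 (lowest at 450, nearest other 732).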

How the results depend on the processing

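The number of called probe sets with a higher signal at 188 dpn was 5281 after median centring, against 3202 as deposited, which is over 1.5 times; the cause was not tested. Leaving out each sample in turn gave 2819 to 3046 higher and 5114 to 5482 lower. The sign turned for 5 genes that are not called as deposited or depend on the probe set. CPS1 differed by -0.02 with 1 added in place of 16, and by -0.24 to 0.37 when each sample was left out. IGF2R differed by 0.03 after median centring and 0.09 after quantile normalization. MSTN (0.04) and MBP (0.53, adjusted p = 0.053) turned when all probe sets of the gene were averaged. COL3A1 differed by 0.03 after median centring, and by -0.54 to 0.03 when each sample was left out. Among the 192 genes checked, quantile normalization ended the call of 14 and median centring that of 10. Leaving out the 3 samples of 1 dpn with a low GAPDH control ratio, chosen after seeing the data, kept each count of genes called per step and direction within 1.5 times. No paired analysis was possible because the labels carry no replicate numbers that tie samples across stages.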
